A study of Homo sapiens with 20 samples.

Results

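The region described here is the AUTS2, GALNT17 and CALN1 locus on the long arm of chromosome 7, taken as chr7:69000000-71900000 (hg19). Its members are the anchor pairs of 4 Hi-C loop lists in which either anchor overlaps this window. In all, 144 such anchor pairs were found among the 572000 anchor pairs present on any list. The locus was chosen by loop strengths measured in these same lists, so the values below describe it and none is a test of it.

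H4 and 42MGBA are human glioblastoma (GBM) cell lines that carry endogenous mutations of STAG2, which encodes a subunit of the cohesin complex. The isogenic derivatives, 1 per parental line, are H4 88-1 and 42MGBA 53-1, in which gene editing restored STAG2 to wild type. Hi-C, which counts ligations between DNA pieces that lay near one another in the nucleus, was performed on 8 samples of these cell lines. For each cell line the authors pooled the 2 replicates into 1 list of its 300000 strongest pairs of 5 kb anchors, each with a signal, the loop strength. There is therefore 1 value per pair and cell line, without a replicate error or a read count, and a difference between 2 lists has no replicate check.

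Cohesin extrudes chromatin into loops, and extrusion is commonly halted where CTCF is bound, most often with the CTCF motifs at the loop ends pointing toward each other. STAG2 and its paralog STAG1 are alternative subunits of cohesin. AUTS2 encodes a nuclear protein of neural development that joins a non-canonical Polycomb repressive complex and is linked to autism and intellectual disability. GALNT17, also named WBSCR17, encodes a member of the enzyme family that begins mucin-type O-glycosylation. CALN1 encodes calneuron 1, a calcium-binding protein related to calmodulin and found mainly in neurons.

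In GENCODE release 44 on this build, AUTS2 (ENSG00000158321.19_19) covers chr7:69063282-70258492 on the plus strand, a length of 1195 kb, with 33 annotated transcript starts. GALNT17 (ENSG00000185274.13_13) covers chr7:70597130-71178585 on the plus strand, 581 kb, with 4 starts. CALN1 (ENSG00000183166.12_13) covers chr7:71244476-71912136 on the minus strand, 668 kb, with 5 starts. The 3′ ends of GALNT17 and CALN1 thus face each other across 65.9 kb.

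The strongest loop of the locus joined the gap between AUTS2 and GALNT17 to the gap between GALNT17 and CALN1. The CTCF core consensus was searched on both strands in each anchor, and the matches at or near the ends of the locus loops are shown because they have opposite orientations on the left and right sides of the strongest loop. Capitals mark the match, each sequence is read 5′ to 3′ on the strand of the match, and the bases are from the GRCh37 (hg19) reference.
Left anchor chr7:70317876-70322835, plus strand, chr7:70322063-70322134: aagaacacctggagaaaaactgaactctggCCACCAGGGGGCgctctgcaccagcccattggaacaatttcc
Right anchor chr7:71193672-71198465, minus strand, chr7:71198410-71198481: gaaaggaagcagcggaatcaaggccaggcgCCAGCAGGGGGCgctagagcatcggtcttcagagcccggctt
Right anchor chr7:71198466-71203473, minus strand, chr7:71201094-71201165: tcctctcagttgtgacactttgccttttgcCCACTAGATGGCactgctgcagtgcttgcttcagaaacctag
Anchor beyond the CALN1 start, minus strand, chr7:71959225-71959296: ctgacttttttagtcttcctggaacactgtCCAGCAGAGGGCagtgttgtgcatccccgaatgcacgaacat

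The left match reads toward the right matches, which lie 876 kb and 879 kb away. These 4 were the matches among the 55 anchors of listed locus pairs (7.27%). The consensus was found in 3337 of the 62843 anchors of merged loops in the genome (5.31%) and in 189 of 4444 on chromosome 7 (4.25%). Among merged loops, a plus-strand match in the left anchor and a minus-strand match in the right anchor occurred in 539 of 129476 loops of the H4 pair (0.416%) and in 495 of 131211 of the 42MGBA pair (0.377%). Both pairs held 2 locus loops with this arrangement, of 59 in the H4 pair and 38 in that of 42MGBA. They are the same 2 neighbouring anchor pairs with a shared left anchor, so they are not separate cases. A match of letters is not evidence that CTCF was bound, and binding was not analysed here.

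The listed anchor pairs of the locus were many in H4 and few in its STAG2-corrected derivative. The H4 list held 135, the H4 88-1 list 11, the 42MGBA list 68 and the 42MGBA 53-1 list 63. These were 0.404%, 0.0417%, 0.341% and 0.299% of the chromosome 7 pairs of the same lists. Among the 100000 strongest pairs of each list, the locus had 59 in H4 and 0 in H4 88-1, against 36 in 42MGBA and 29 in 42MGBA 53-1.

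Median strength of the listed locus pairs was 5.35 in H4, with a range of 4.15 to 13.7, and 5.00 in H4 88-1, with a range of 4.53 to 5.74. It was 7.01 in 42MGBA, with a range of 4.54 to 12.5, and 5.75 in 42MGBA 53-1, with a range of 4.29 to 10.5. The whole lists had medians of 5.17, 5.52, 5.54 and 5.20 in the same order. A listed pair can only lie above the lowest strength of its list, which was 4.14 in H4 and 4.44 in H4 88-1, against 4.49 in 42MGBA and 4.28 in 42MGBA 53-1. Within its list, the strongest locus pair ranked 2697 in H4 and 131015 in H4 88-1, against 5752 in 42MGBA and 8235 in 42MGBA 53-1. From the top of the list these ranks lie at 0.899% in H4, 1.92% in 42MGBA and 2.75% in 42MGBA 53-1, whereas that of H4 88-1 lies at 43.7%.

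Across the lists, 11 pairs were on all 4, 42 were on the 3 other than H4 88-1, 16 were on 2 lists and 75 on 1. Of the pairs on a single list, 67 were on that of H4, 3 on that of 42MGBA, 5 on that of 42MGBA 53-1 and 0 on that of H4 88-1. All 11 pairs of H4 88-1 were therefore also on the other 3 lists.

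When neighbouring pairs with both anchors within 10 kb were joined, the 144 pairs fell into 5 groups. The largest held 121 pairs, and the other 4 groups held 23. The map of the groups shows their position relative to the genes.

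**Figure D1:**
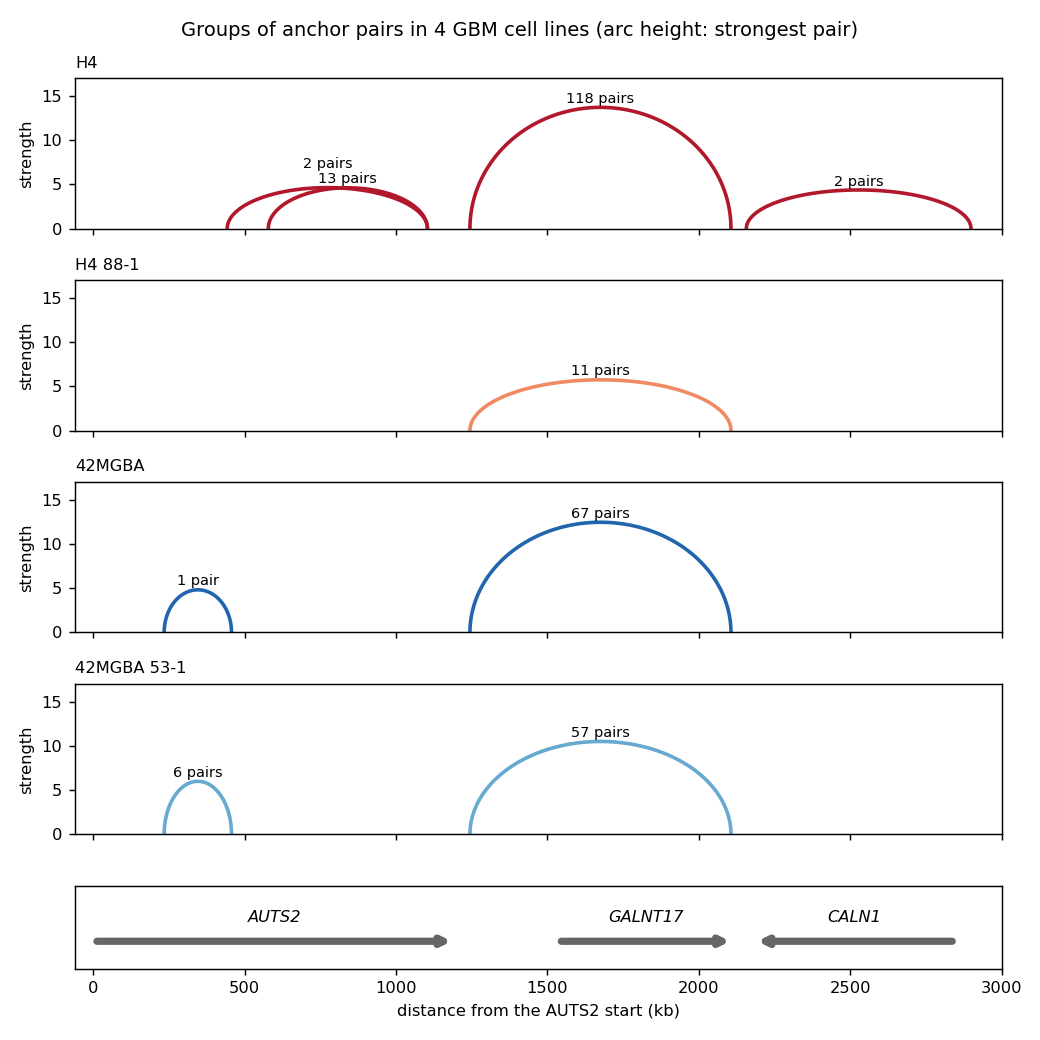
Groups of neighbouring anchor pairs in each of 4 GBM cell lines, drawn as arcs above the genes, with the distance from the AUTS2 start in kb on the horizontal axis and the strength of the strongest pair of the group on the vertical axis (signal, 1 pooled value). The arc over GALNT17 is present in each cell line and reaches 13.7 in H4 and 5.74 in H4 88-1, against 12.5 in 42MGBA and 10.5 in 42MGBA 53-1, while the smaller arcs are present in 1 or 2 cell lines.

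The largest group spanned GALNT17, and its strongest pairs enclosed the whole gene. Its left anchors covered 86.1 kb from 70264181 to 70350233, between the 3′ end of AUTS2 and the start of GALNT17. Its right anchors covered 78.2 kb from 71130202 to 71208436, from the last part of GALNT17 into the gap before CALN1. Pair sizes, measured between anchor midpoints, ran from 812 to 935 kb. The group held 118 pairs in H4 and 11 in H4 88-1, against 67 in 42MGBA and 57 in 42MGBA 53-1.

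Loops of this size were uncommon on the lists. Pairs over 800 kb made up 9.61% of the H4 list, 5.82% of the H4 88-1 list, 6.72% of the 42MGBA list and 4.27% of the 42MGBA 53-1 list. The locus had 118, 11, 67 and 57 such pairs, and its median size was 871, 900.3, 881 and 881 kb against 348, 312, 307 and 257 kb in the whole lists.

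The pair with the highest strength in H4 joined 70317876 to 70322835 with 71198466 to 71203473, 881 kb apart. Strength there was 13.7 in H4 and 4.70 in H4 88-1, against 12.0 in 42MGBA and 9.91 in 42MGBA 53-1. The left anchor lies 59.4 kb beyond the AUTS2 end and 274 kb before the GALNT17 start, and the right anchor lies 19.9 kb beyond the GALNT17 end and 41.0 kb from the 3′ end of CALN1. Neither anchor is at a start site of these genes. In 42MGBA and 42MGBA 53-1 the strongest pair had the same left anchor and the neighbouring right anchor, 71193672 to 71198465. Strength there was 13.5 in H4 and 4.83 in H4 88-1, against 12.5 in 42MGBA and 10.5 in 42MGBA 53-1. The pairs that lead in H4, 42MGBA and 42MGBA 53-1 are those with the plus-strand and minus-strand matches printed above.

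In H4 88-1 the strongest pair was another, from 70293177 to 70298183 on the left to 71198466 to 71203473 on the right, 905 kb apart. Strength there was 12.6 in H4 and 5.74 in H4 88-1, against 9.11 in 42MGBA and 7.38 in 42MGBA 53-1. No match to the CTCF consensus was found in this left anchor. The neighbouring left anchor, 70298184 to 70303082, overlaps an exon of ENSG00000236978, an annotated gene that is not among the 3 of the locus.

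The left side of the group had a pair of peaks separated by a low at 70303083 to 70308049. At the peak nearer to AUTS2, strength reached 12.6 in H4 and 5.74 in H4 88-1, against 9.20 in 42MGBA and 7.55 in 42MGBA 53-1. At the peak nearer to GALNT17, it reached 13.7, 4.83, 12.5 and 10.5 in the same order. At the low between them, the strongest pair was 10.2 in H4, 7.05 in 42MGBA and 5.19 in 42MGBA 53-1, and no pair was listed in H4 88-1. The ratio of the AUTS2-side peak to the GALNT17-side peak was 0.918 in H4 and 1.19 in H4 88-1, against 0.737 in 42MGBA and 0.718 in 42MGBA 53-1. The GALNT17-side peak was thus the higher in both STAG2-mutant lines and in 42MGBA 53-1, and the lower in H4 88-1, a difference that has no replicate check. The profile of the left anchors shows both peaks.

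**Figure D2:**
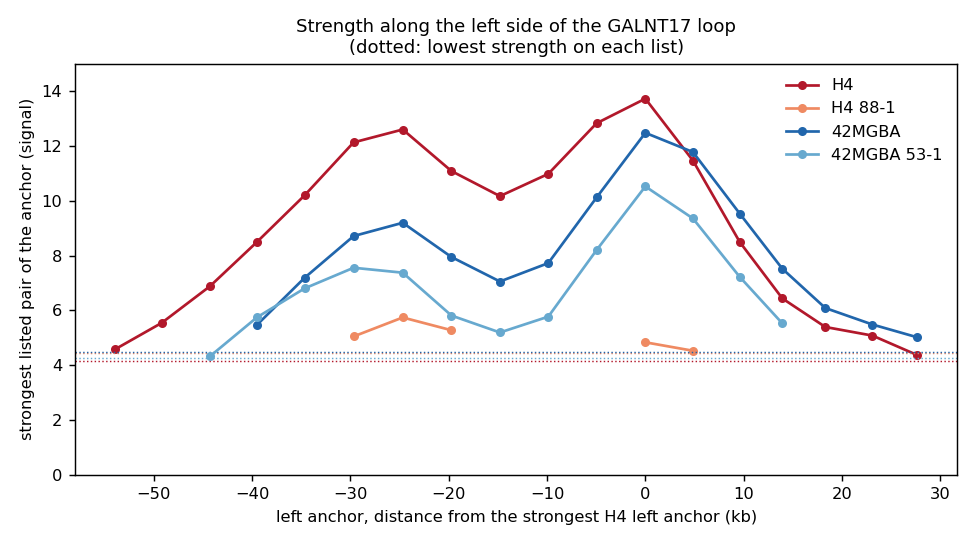
Strength of the strongest listed pair of each left anchor of the largest group (signal, vertical axis) by distance in kb from the left anchor of the strongest H4 pair (horizontal axis). Solid lines are the 4 cell lines and dotted lines the lowest strength on each list; H4, 42MGBA and 42MGBA 53-1 have a pair of peaks, and the 5 listed left anchors of H4 88-1 lie between 4.53 and 5.74.

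On the right side, strength in H4 extended into the body of GALNT17. The group had 36 pairs whose right anchor overlapped GALNT17, over 10 anchors, and H4 listed 36 of them, with a highest strength of 7.22 at 71164374 to 71169355, in an intron. The 42MGBA list held 2 of them, up to 4.71, the 42MGBA 53-1 list 4, up to 5.58, and the H4 88-1 list 0. They made up 30.5% of the H4 pairs of the group, 2.99% of those of 42MGBA and 7.02% of those of 42MGBA 53-1. Some of these H4 pairs, which went down to 4.15, lay below the lowest strengths listed for the other lines. Those were 4.44 in H4 88-1, 4.49 in 42MGBA and 4.28 in 42MGBA 53-1. Such pairs could not be listed there at the same strength, so the counts and shares do not rest on a common floor. A second maximum in H4 lay at 71134959 to 71139948, over a GALNT17 exon, with a strength of 5.16. The grid of strengths shows this extension as a column below the GALNT17-side peak.

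**Figure D3:**
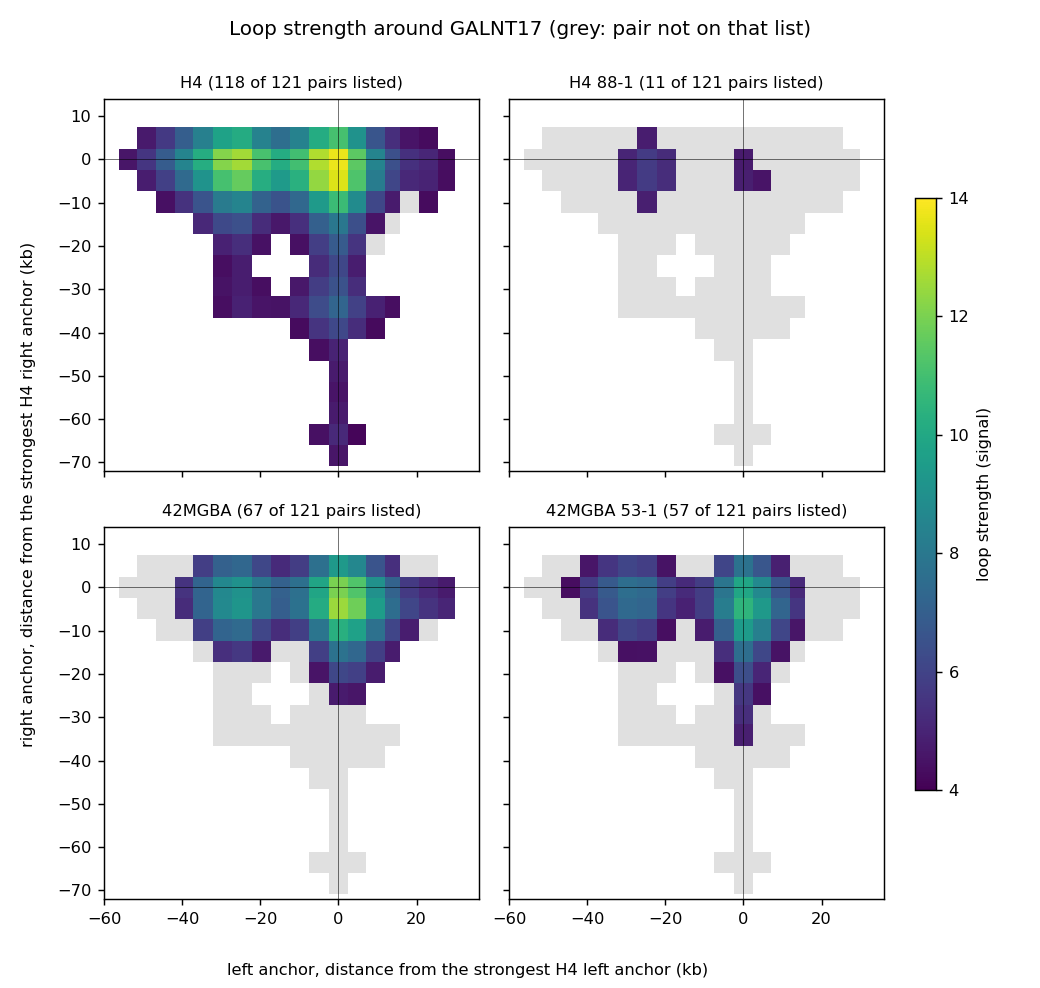
Loop strength (colour, signal) of the 121 pairs of the largest group in each cell line, by distance in kb of the left anchor (horizontal axis) and of the right anchor (vertical axis) from those of the strongest H4 pair, with negative right-anchor distances toward GALNT17. Coloured squares are listed pairs, 118 in H4 and 11 in H4 88-1, against 67 in 42MGBA and 57 in 42MGBA 53-1, and grey squares are pairs that are on another list only.

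The next comparison asks which loops changed with STAG2 status. In each isogenic pair, loops among the 100000 strongest of either cell line were pooled (merged loops), and the STAG2-corrected strengths were fitted to the STAG2-mutant strengths by a line through the origin. A loop was called lost or gained in the STAG2-corrected line when the z-score of its residual passed 1.96 in either direction. Where a loop was missing from a list, the lowest listed strength of that cell line was used. Over the genome, the H4 pair had 129476 merged loops, with 2.17% called lost and 1.94% gained. In the 42MGBA pair, 2.45% of 131211 were called lost and 1.61% gained. The cutoff ranks loops within a pair of lists and does not measure replicate error.

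In the H4 pair, 59 merged loops lay in the locus, all of them in the largest group, and 37 were called lost (62.7%, against 2.17% over the genome), while 0 were called gained. Because the locus was chosen by these strengths, nothing is read from this share. All 59 had a lower value in H4 88-1 than in H4, against 54295 of 129476 over the genome. The 59 entered through the 100000 strongest of H4 and 0 through those of H4 88-1, so this direction was nearly fixed in advance. Of the 59, 48 were absent from the H4 88-1 list, so that their ratios are bounds. The median log2 ratio of H4 88-1 to H4 strength was -0.92, from -1.54 to -0.41, and the z-scores ran from -5.69 to -1.08. The 37 lost loops were neighbours of one another and joined into a single group, so that they are not 37 separate loops. The count was 58 of 59 with absent pairs set to 0 (3.84% over the genome). With pairs on both lists only it was 11 of 11 (2.48% over the genome). The median was -0.27 when all 300000 pairs of each list were merged. In that setting 124 of 135 locus pairs were absent from the H4 88-1 list.

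Among the pairs on both H4 lists, the difference had 1 direction. All 11 were stronger in H4, by 1.77-fold to 2.92-fold, with a median of 2.19-fold. The locus was chosen by these strengths, and the 11 all belong to the largest group, so nothing is read from their common direction. No share over all pairs on both lists is given. Of the 11, the 8 at the AUTS2-side peak were stronger by 1.77-fold to 2.40-fold and the 3 at the GALNT17-side peak by 2.48-fold to 2.92-fold. The ranges at the peaks did not overlap, but they cover only pairs that H4 88-1 listed. A further 35 H4 pairs at the AUTS2-side peak and 66 at the GALNT17-side peak were not on its list. The 3 at the GALNT17-side peak had H4 88-1 strengths of 4.53 to 4.83, near the lowest one listed, 4.44. Neighbouring pairs are not independent, and the difference was not tested. In the largest group, 107 pairs were on the H4 list and not on that of H4 88-1, and 92 of them had an H4 strength above the lowest one listed for H4 88-1. For these the fold is a lower bound, whose largest value was at least 2.89-fold, for a pair of 12.8 in H4.

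The lowest z-score of the locus, -5.69, was that of the strongest H4 pair described above. The anchors in most lost loops were on the right side of the group. Both 71193672 to 71198465 and 71198466 to 71203473 took part in 11 lost loops, 71203474 to 71208436 in 9 and 71188681 to 71193671 in 5. On the left, 70317876 to 70322835 took part in 5. Of the 16 anchors of lost loops, 3 held a match to the CTCF consensus (18.8%). The share was 5.31% over all anchors of merged loops and 4.25% over those on chromosome 7. The 3 are the left and right anchors printed above, and all 16 belong to 1 group, so nothing is read from this share.

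In the 42MGBA pair, most locus loops were also weaker in the STAG2-corrected line, and no loop passed the cutoff. Of 38 merged locus loops, 37 in the largest group, 0 were called lost (2.45% over the genome) and 0 gained (1.61% over the genome). All 38 were on both lists, and 36 were weaker in 42MGBA 53-1, against 80437 of 131211 over the genome. Their median log2 ratio of 42MGBA 53-1 to 42MGBA strength was -0.33, from -0.52 to 0.32, and their z-scores ran from -1.12 to 0.94. The z-score was negative in 33 of them, against 63935 of 131211 over the genome. With an intercept in the regression, the z-score of the strongest 42MGBA pair was 0.23 instead of -0.54. The difference between the systems was not tested.

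Named pairs show the size of this difference. The pair of 70298184 to 70303082 with 71193672 to 71198465, which had the lowest z-score, was 7.95 in 42MGBA and 5.54 in 42MGBA 53-1. The strongest 42MGBA pair had strengths of 12.5 and 10.5 in the same order and a z-score of -0.54. Among the 54 locus pairs on both lists, 49 were stronger in 42MGBA, and the ratio of 42MGBA to 42MGBA 53-1 ran from 0.804 to 1.44 with a median of 1.23. Whether this ratio exceeds the spread between replicates cannot be told from pooled lists.

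The 11 pairs on all lists were set side by side in both systems. At the AUTS2-side peak their ratios of STAG2-mutant to STAG2-corrected strength were 1.77 to 2.40 in the H4 system and 1.15 to 1.44 in the 42MGBA system. At the GALNT17-side peak they were 2.48 to 2.92 and 1.19 to 1.26. Of the 37 loops merged in both systems, 33 had a negative z-score in both and 0 were called lost in both. Nothing is read from these counts. All 59 locus loops of the H4 pair had a negative z-score, so the 33 repeats the count of the 42MGBA pair. The 0 follows from the 0 lost locus loops of that pair. No share over all merged loops is given for either count.

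Between the STAG2-mutant parental lines, 64 pairs of the largest group were on both lists. Of these, 46 were stronger in H4, and the median ratio of H4 to 42MGBA strength was 1.15, while the median of the whole list was lower in H4 (5.17) than in 42MGBA (5.54).

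The surroundings of the locus did not have the same values. On the rest of chromosome 7, 968 of 15514 merged loops of the H4 pair were called lost (6.24%) and 115 gained (0.741%), with a median log2 ratio of -0.11. Within 10 Mb of the window, 211 of 1694 were called lost (12.5%) and 3 gained, with a median of -0.29. Loops of 800 to 950 kb elsewhere in the genome had a median of -0.18, and 257 of 4189 were called lost (6.14%). The median over the whole genome was 0.074. These regions are not ranked against the locus, since its 59 merged loops all came from the 100000 strongest of H4 and 0 from those of H4 88-1, while the loops elsewhere came from either list. With all 300000 pairs of each list merged, the locus median was -0.27, and no such value is given for the other regions. In that setting, 124 locus pairs were absent from the H4 88-1 list and took its lowest strength, 4.44. The -0.27 is therefore not set against the medians above. Chromosome medians in the H4 pair ran from -0.15 to 0.34.

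In the 42MGBA pair, loops of 800 to 950 kb elsewhere had a median log2 ratio of -0.32, with 208 of 3227 called lost (6.45%), and those of the same size on the rest of chromosome 7 had a median of -0.11, with 13 of 485 called lost (2.68%). Within 10 Mb of the window the median was 0.25, with 0 of 807 called lost and 85 gained (10.5%). On the rest of chromosome 7 it was -0.05, and over the genome it was -0.11. The median of the locus, -0.33, thus had the opposite sign to that of the loops within 10 Mb, but these sets differ in loop size. Median size was 883 kb in the locus and 337 kb within 10 Mb. The locus median was close to that of loops of 800 to 950 kb elsewhere, -0.32. When z-scores were computed within 20 bins of loop size, 31 of 59 locus loops of the H4 pair were called lost instead of 37. Over the genome, 2.27% were called lost in this way. The z-score of the strongest H4 pair was then -5.15 instead of -5.69. In the 42MGBA pair the lowest z-score of the locus was then -0.60 instead of -1.12, and that of the strongest 42MGBA pair -0.071 instead of -0.54. The plot of ratios by region shows these medians.

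**Figure D4:**
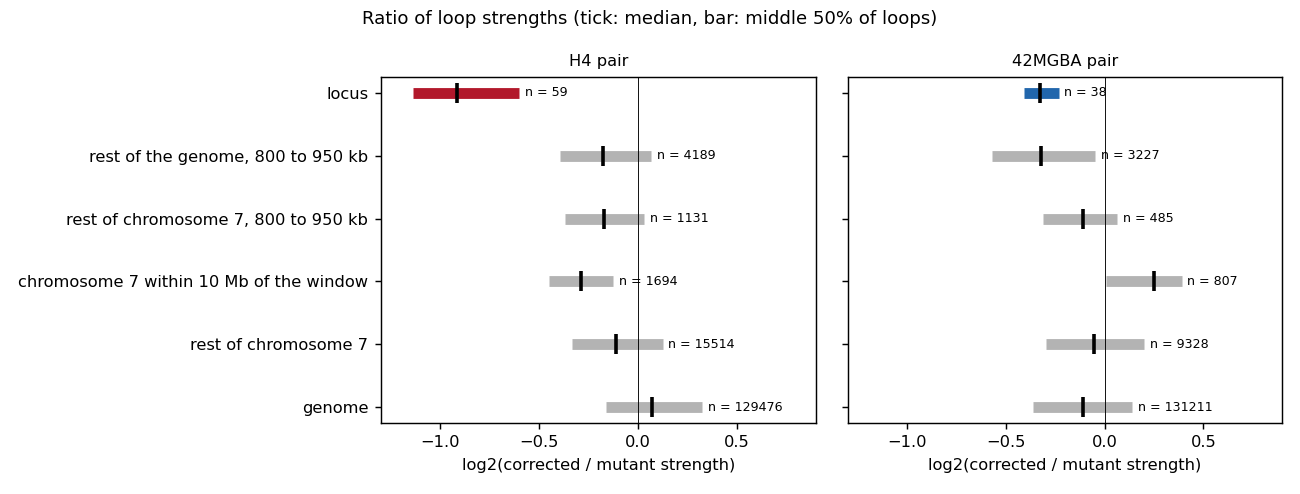
Log2 of STAG2-corrected over STAG2-mutant loop strength (horizontal axis) of merged loops in the locus and in 5 comparison regions, for the H4 pair and the 42MGBA pair. Ticks are medians, bars the range from the first to the last quartile of the loops, which are not replicates, and n the number of loops; the locus median is -0.92 in the H4 pair, against -0.33 in that of 42MGBA.

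The start sites of the genes were mostly free of listed anchors. An anchor was taken to be at a gene when it lay within 3 kb of an annotated transcript start. For AUTS2, 10 pairs were listed in H4 and 0 in H4 88-1, against 0 in 42MGBA and 2 in 42MGBA 53-1. For GALNT17 and for CALN1, 0 pairs were listed in each of the 4 cell lines, also with a distance of 10 kb. No pair lay at the 5′ end of the AUTS2 gene record, and those found were at internal starts of shorter transcripts. The nearest listed anchor to the 5′ end of AUTS2 was 440.1 kb away in H4 and 1225 kb in H4 88-1, against 234 kb in 42MGBA and 224 kb in 42MGBA 53-1. For GALNT17 it was 247, 269.6, 247 and 261 kb away. For CALN1 it was 44.9 kb away in H4 and 703.7 kb in the other 3 lines.

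Inside AUTS2, the cell systems had different listed loops. A group of 13 pairs joined an AUTS2 intron at 69624835 to 69657851 with anchors at and beside internal AUTS2 starts, at 70157094 to 70176558, 504 to 542 kb apart, and was listed in H4 only, with strengths of 4.17 to 4.62. A group of 2 pairs joined 69503394 to 69507756 with 70162088 to 70171935, also in H4 only, with strengths of 4.41 and 4.64. Of these 15 pairs, 10 were within 3 kb of a start. The value of 4.64 is that of the strongest pair at an AUTS2 start in H4, 659 kb long, and the pair of 4.41 was not at a start. All these strengths were close to the lowest value listed for H4, 4.14, and to that of H4 88-1, 4.44, so that their absence from the other lists does not show a large difference.

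In the 42MGBA system, AUTS2 had a shorter group. Its 6 pairs joined 69287504 to 69307337 with 69512631 to 69527013, in an AUTS2 intron, 215 to 230 kb apart. All 6 were listed in 42MGBA 53-1, at 4.29 to 6.01, with 2 of them within 3 kb of an internal AUTS2 start, and 1 in 42MGBA, at 4.83. None was listed in H4 or H4 88-1. The 5 pairs listed in 42MGBA 53-1 only were 0.956 to 1.14 times the lowest strength listed for 42MGBA, 4.49. Their absence from the 42MGBA list therefore does not show a large difference. The pair of 69297411 to 69302395 with 69517119 to 69522113 was 4.83 in 42MGBA and 6.01 in 42MGBA 53-1, and its z-score of 0.94 was the highest of the locus in the 42MGBA pair. The strongest pair at an AUTS2 start in 42MGBA 53-1 joined 69292465 to 69297410 with 69517119 to 69522113, with a strength of 5.12. This group was the only one of the 5 whose strongest pair was higher in a STAG2-corrected line than in its parental line. The 1 pair of it among the merged loops did not pass the cutoff.

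The last group enclosed CALN1. It joined 71217656 to 71222489, 39.1 kb beyond the GALNT17 end, with 71957058 to 71967014, 44.9 kb beyond the CALN1 start, and held 2 pairs of 739 and 744 kb. Both were listed in H4 only, at 4.18 and 4.37, below the lowest strength listed for H4 88-1. The right anchors lie outside the window, and the left anchor places the pairs in it.

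The 2 pairs around CALN1 were the only listed pairs that crossed an edge of the window. Of pairs wholly outside it, the nearest on the side of lower coordinates were 2535 kb away in H4 and 2735 kb in H4 88-1, against 2984 kb in 42MGBA and 3159 kb in 42MGBA 53-1. On the other side these were 969, 1092, 1112 and 1102 kb away. These outside pairs had strengths of 4.33 to 5.24. No listed pair spanned the window in any of the 4 lists.

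Genes related to the 3 genes of the locus were looked up by the same start-site rule. In a list of 13 genes of AUTS2-containing Polycomb complexes, 2 had merged loops in each pair and 0 had a lost or gained loop. EP300, a histone acetyltransferase that AUTS2 is known to recruit, had a median log2 ratio of -0.17 over 14 loops in the H4 pair, against 0.065 over 13 loops in that of 42MGBA. The other gene with loops differed between the pairs. It was CSNK2B, a casein kinase 2 subunit, in the H4 pair, with a median of -0.44 over 5 loops, and RYBP, a Polycomb complex subunit, in that of 42MGBA, with -0.37 over 4 loops. The list medians of -0.30 and -0.15 are therefore not over the same genes.

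Of 20 genes of the GALNT family, 5 had merged loops in the H4 pair, against 7 in that of 42MGBA, and 0 had a lost loop in either. GALNT12, another enzyme that starts O-glycosylation, had a gained loop in both, with 2 gained of 32 loops in the H4 pair, against 2 of 15 in that of 42MGBA, and median log2 ratios of 0.43 and 0.35. Over the genome, 1.94% and 1.61% of merged loops were called gained. Of protein-coding genes with merged loops, 9.56% and 6.37% had a gained loop. GALNT12 was named after its values were seen, so it is not a result about the family. The median over genes of the family was 0.11 in the H4 pair, against 0.051 in that of 42MGBA.

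Of 9 calcium-binding genes related to CALN1, 2 had merged loops in each pair. CALM2, a calmodulin gene, had 8 gained of 35 loops in the H4 pair, with a median log2 ratio of 0.75, and 0 gained of 7 in the 42MGBA pair, with a median of 0.43. Over the genome, 1.94% and 1.61% of merged loops were called gained, and CALM2 was named after its values were seen. CALM3, another calmodulin gene, had a median of 0.19 over 1 loop in the H4 pair and of -0.66 over 4 loops in the other, with 0 lost and 0 gained. The medians over genes of this list were 0.47 and -0.12. A further list held 30 neighbouring genes on the long arm of chromosome 7, many but not all of them of the Williams-Beuren region. Of these, 8 had merged loops in the H4 pair, against 9 in that of 42MGBA, with 0 lost and 0 gained in either. The medians over genes were -0.0087 and -0.063. For comparison, of 4761 protein-coding genes with merged loops in the H4 pair, 5.86% had a lost loop and 9.56% a gained loop, and of 4565 in the 42MGBA pair, 7.16% and 6.37% did. The medians over all these genes were 0.13 and -0.091.

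Among 2121 protein-coding genes outside the window with at least 5 loops at their start sites in both pairs, those nearest to the locus in their median log2 ratios were taken by Euclidean distance. They were PCDHB12, PCDHGA1, HUNK, PACC1 and PCDHB13. PCDHB12, a clustered protocadherin, had medians of -0.64 in the H4 pair, against -0.28 in that of 42MGBA, at a distance of 0.276. HUNK, a protein kinase gene on chromosome 21, had medians of -0.61 and -0.30. PACC1, which encodes a proton-activated chloride channel, had medians of -0.60 and -0.32. PCDHB12, PCDHB13 and PCDHGA1 lie in the same gene cluster on chromosome 5, so they are not separate cases.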

How the data were processed

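Hi-C was performed by the authors on 8 samples of 4 cell lines with an Arima kit. Reads were trimmed, aligned to hg19 with Bowtie (as in the submitters' processing notes; version not given in the sources used here), filtered and assigned to 5 kb anchor pairs. The authors corrected biases with HiCorr, enhanced the data with LoopEnhance of DeepLoop, and deposited loop strengths, a signal, of the 300000 strongest pairs per cell line, with the 2 replicates pooled. The deposited lists hold no read counts, so the depth behind a value is unknown. A distance column, in another unit, was not used for the results. The z-score was the residual of the regression through the origin, centred and divided by its SD, with a two-sided 0.05 cutoff (1.96), and the form of regression is not given in the study's methods. Pairs absent from a list took its lowest strength, so such folds are lower bounds. Genes came from GENCODE release 44 on GRCh37. The genes of the locus and any at anchors of called loops, the strongest and the most extreme loops, the anchors with most called loops and the 5 nearest genes by pattern were named by rule. CALM2, CALM3, GALNT12, EP300, CSNK2B and RYBP were named after their values were seen, as was the right-side extension. The members and gene lists were chosen with earlier results of these data known. No test was run on the pooled lists. Alternatives changed the regression, scale, cutoff, absent pairs, number merged, size bins, chromosome level, membership, joining and start-site distance. The procedure was tested on simulated data. The 12 RNA-seq samples, compartments and xenografts were not analysed here. Calculations ran in Python 3.11.15 using pandas 2.3.3, numpy 2.4.6 and scipy 1.17.1, and figures were drawn by matplotlib 3.10.9.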

Additional observations from a re-analysis of the deposited data

How the results depend on the processing

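In the H4 pair, 37 of 59 locus loops were called lost (2.17% over the genome), and 58 of 59 with absent pairs set to 0 (3.84%). When only pairs on both lists were used, 11 of 11 were called (2.48%). The lost loops became 1 when neighbours within 10 kb were joined. Under the other settings 30 to 52 were called, or 38.5% (300000 merged) to 87.5% (50000 merged) of the locus loops. Over the genome these settings gave 0.342% to 3.11%. In the locus 0 were called gained under any setting, against 0.470% to 9.36% over the genome. The median log2 ratio of -0.92 became -1.13 with pairs on both lists only, -0.58 with 200000 and -1.08 with 50000 merged, -0.80 relative to the rest of chromosome 7, and -0.27 with 300000 merged, an alternative chosen after seeing the data. In the 42MGBA pair no locus loop was called under any of the settings run, against 0.768% to 6.06% lost and 0.383% to 4.44% gained over the genome. There, a regression with an intercept turned the z-score of the strongest H4 pair from -0.65 to 0.036 and that of the strongest pair of 42MGBA and 42MGBA 53-1 from -0.54 to 0.23. The highest z-score of the locus in the H4 pair, -1.08, became -2.68 with absent pairs set to 0 and -0.48 within bins of loop size. Listed pairs fell to 59 in H4 and 0 in H4 88-1, and to 36 in 42MGBA and 29 in 42MGBA 53-1, among the 100000 strongest. At AUTS2 starts, 0 pairs remained in H4 and in 42MGBA 53-1 with the 5′ end of the gene record only, and a distance of 10 kb gave 1 in 42MGBA and 5 in 42MGBA 53-1. No paired analysis was possible because each list pools its replicates, and for the same reason no replicate could be left out. The lists give no counts, so depth limits cannot be computed.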
